A study of Homo sapiens with 4 samples.

Results

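The 39 genes described here form a named list of the transcriptional response to stress of the endoplasmic reticulum (ER), and they were taken by symbol from 60279 genes in the count tables. All 39 were found, and all 39 were among the 14269 genes tested, which had a mean of at least 1 CPM (reads relative to the library total). The list has 24 ER chaperone and degradation genes, namely 16 that fold proteins in the ER, 4 that degrade them and 4 sensors or factors of the ER. The other 15 are the ATF4 and serine synthesis genes, with 9 factors and regulators and 6 enzymes of serine, one-carbon and asparagine synthesis. Their expression was followed in SUM159, an established line of triple-negative breast cancer, by RNA sequencing of 4 libraries. SUM159 cells were left untreated, treated with palbociclib, treated with indisulam or treated with both drugs (the combination), with 1 library per condition. Palbociclib is an inhibitor of the cell cycle kinases CDK4 and CDK6, and indisulam directs the splicing factor RBM39 to a ubiquitin ligase for degradation. The sample labels give 0.5 µM palbociclib, 2 µM indisulam and 10 days, whereas the text on the series gives 2 µM palbociclib, 3 µM indisulam and 16 h with technical duplicates, so dose and duration are uncertain for every value here.

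Unfolded proteins in the ER activate the sensors IRE1 (gene ERN1), PERK (gene EIF2AK3) and ATF6. IRE1 splices the mRNA of XBP1, and XBP1 and ATF6 then drive the genes of ER chaperones and of ER-associated degradation. PERK phosphorylates the translation factor eIF2α, as do other kinases that sense amino acid shortage, viral RNA or heme shortage. This slows translation in general but favours translation of ATF4, a factor that drives genes of amino acid synthesis and transport and its partner CHOP (gene DDIT3). Because ATF4 can be activated without stress in the ER, the ER chaperone and degradation genes are given apart from the ATF4 and serine synthesis genes. Splicing of XBP1 mRNA and the protein level of ATF4 cannot be read from gene counts.

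Reads in genes numbered from 12555908 to 16712174 per library, and 3 reads, the floor used here, corresponded to between 0.18 and 0.239 CPM. Mitochondrially encoded genes took between 4.9% (indisulam) and 7.33% (palbociclib) of the reads. The mesenchymal markers of this line were high, with VIM between 2642 and 4598 CPM. The receptor genes ESR1 and PGR, which define other breast cancers, had at most 16 and 3 reads in a library, whereas ERBB2 (HER2), the other receptor gene of this kind, was at 110 to 143 CPM. Of 3 genes of blood and endothelial cells, CDH5 was at 0 reads in the indisulam and combination libraries and at 5 and 23 reads in the untreated and palbociclib libraries, PTPRC had between 153 and 292 reads, and PECAM1 had 191, 519, 293 and 293 reads in the untreated, palbociclib, indisulam and combination libraries. The summed level of these 3 genes was 55.2 CPM in the palbociclib library and between 27.8 and 35 CPM in the others, and its part in the results was not tested. No replicates were available, so no difference has a replicate check and no p-value is given. The labels name no batch, and a batch could not be told apart from a treatment.

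Ratios between libraries are log2 ratios of reads scaled to library totals with a pseudocount of 1 scaled count, followed in brackets by a 95% interval that covers counting error only. To be called higher or lower, a gene needed a change of 2-fold or more and an interval that excluded no change. A less direct measure of the variation between libraries came from the departure from additivity, which is what remains of the combination's log2 ratio to untreated once those of both single drugs are taken away. Across the tested genes the departure had a robust SD of 0.47, which gave an upper bound of 0.33 for the spread of 1 ratio. Computed separately within ranges of mean level, the bound was 0.62 between 1 and 5 CPM and 0.37 between 5 and 20 CPM. It was 0.26 between 20 and 100 CPM and 0.28 above that range. These are values for typical genes, and since a call needs 2-fold, every call exceeds them by its definition. The ratios of both single drugs and of the combination to untreated share the untreated library, the ratios of palbociclib to untreated and of the combination to palbociclib share the palbociclib library, and the departure uses all 4 libraries, so these are not independent of each other.

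In untreated cells the members covered a wide range of levels, compared here per length as TPM (reads per base of the joined exons of a gene, scaled to 1 common total per library). The highest level was 1163 TPM for CALR, which encodes calreticulin, a chaperone of glycoproteins in the ER. Among the ER chaperone and degradation genes, PDIA6, PDIA4 and HSPA5 followed at 501, 412 and 350 TPM, and the disulfide oxidase gene ERO1B was lowest at 2.61 TPM. The sensors were among the lower ER genes, with 20.9 TPM for ATF6, 7.27 TPM for ERN1 and 5.14 TPM for EIF2AK3, whereas XBP1 was at 166 TPM. Among the ATF4 and serine synthesis genes, DDIT4 was at 765 TPM and ATF4 itself at 580 TPM, and ATF3 was lowest at 2.53 TPM. Of the enzymes in untreated cells, SHMT2 was at 237 TPM, PSAT1 at 179 TPM and ASNS at 107 TPM. MTHFD2 was at 73 TPM, PHGDH at 61.6 TPM and PSPH at 20.8 TPM. The order of levels within the enzymes differed in the palbociclib library, where SHMT2 was at 107 TPM, MTHFD2 at 45 TPM, PSAT1 at 34 TPM, PSPH at 30.9 TPM, ASNS at 16.4 TPM and PHGDH at 8.25 TPM. Such orders between genes depend on the exon length used. By CPM in untreated cells, PHGDH (152) was above ASNS (140) and PSAT1 (106). Likewise HSP90B1 (1179) was above CALR (874), and SDF2L1 (8.36) was below ERO1B (10.8).

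**Figure D1:**
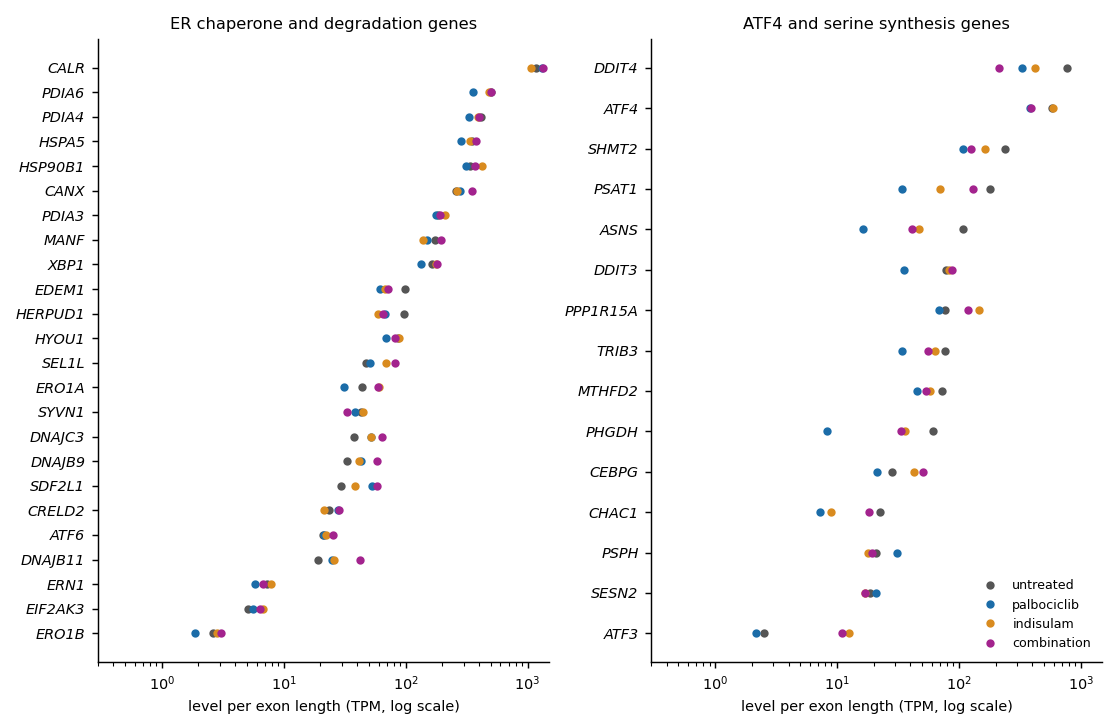
Level of each member in the 4 libraries, in TPM per joined exon length on a log axis, with 1 point per library. CALR is highest among the ER chaperone and degradation genes and DDIT4 among the ATF4 and serine synthesis genes in untreated cells, and the palbociclib points of PHGDH, ASNS and PSAT1 lie far to the left of the other libraries.

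The promoters of both sets carry letters known from the study of these pathways, and they are shown because both elements are textbook features of such genes, although most promoters of the ATF4 and serine synthesis genes lack these letters. RefSeq promoters on GRCh38.p14 (from 250 bases before to 50 bases after the start site) were searched on both strands for exact letters. The ER stress response element, bound by ATF6 and XBP1, was searched as CCAAT, 9 bases of any kind and CCACG, and the C/EBP-ATF response element, bound by ATF4 with C/EBP partners, as TGATG, 1 base of any kind and AA. The first was in the promoters of 8 of 23 ER chaperone and degradation genes with an entry (34.8%) and of 0 of 13 ATF4 and serine synthesis genes, against 25 of all 27305 genes (0.0916%). The second was in 1 of the 23 (HERPUD1) and in 4 of the 13 (ASNS, ATF3, CEBPG and CHAC1), against 4.46% of all genes. PDIA3, PSPH and SHMT2 had no entry. These elements were first described in promoters such as these, so the counts are a description of the list, and a match is not evidence of binding. The 250 bases before the start site are printed for HSPA5 (chr9:125241344-125241593, minus strand), ASNS (chr7:97872409-97872658, minus strand) and CHAC1 (chr15:40953221-40953470, plus strand), each 5′ to 3′ on the strand of the gene, with the element in capitals. In HSPA5 the ER stress response element begins 66 bases before the start site, in ASNS the C/EBP-ATF response element begins 68 bases before it, and in CHAC1 that element lies on the opposite strand, 209 bases before it.
HSPA5: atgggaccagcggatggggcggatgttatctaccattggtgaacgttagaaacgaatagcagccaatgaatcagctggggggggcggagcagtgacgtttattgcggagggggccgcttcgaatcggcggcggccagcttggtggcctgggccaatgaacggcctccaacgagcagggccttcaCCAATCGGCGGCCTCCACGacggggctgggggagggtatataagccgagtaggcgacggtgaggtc
ASNS: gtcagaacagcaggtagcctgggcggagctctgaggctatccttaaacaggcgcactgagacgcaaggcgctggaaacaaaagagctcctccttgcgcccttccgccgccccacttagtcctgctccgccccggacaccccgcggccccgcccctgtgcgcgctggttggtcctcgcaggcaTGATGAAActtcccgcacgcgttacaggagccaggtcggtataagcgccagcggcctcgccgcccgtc
CHAC1: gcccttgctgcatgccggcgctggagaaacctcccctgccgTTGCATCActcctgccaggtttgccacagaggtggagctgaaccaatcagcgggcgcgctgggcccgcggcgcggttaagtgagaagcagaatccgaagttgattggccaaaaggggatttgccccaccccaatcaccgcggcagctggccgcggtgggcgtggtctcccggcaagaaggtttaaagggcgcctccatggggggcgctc

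The ER stress response elements of the 8 genes are given below each other on their own strand to show how the fixed letters (capitals) stay while the 9 bases between them (lower case) differ from gene to gene. CANX has the same letters in 3 overlapping promoter windows, and HSP90B1 has a pair of elements, 1 on each strand. A second form of the element, searched as ATTGG, 1 base of any kind and CCACG, was in 3 of the 23 ER genes (HERPUD1, HYOU1 and SDF2L1), in 0 of the 13 and in 0.0696% of all genes. The letters TGACGTGG, bound by XBP1, were in HYOU1 alone among the members and in 0.927% of all genes.
CALR: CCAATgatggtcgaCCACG
CANX: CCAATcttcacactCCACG
CRELD2: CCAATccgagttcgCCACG
ERO1B: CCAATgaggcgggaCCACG
HSP90B1: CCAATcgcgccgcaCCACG
HSP90B1: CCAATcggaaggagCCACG
HSPA5: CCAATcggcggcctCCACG
PDIA6: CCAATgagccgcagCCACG
XBP1: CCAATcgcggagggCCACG
HERPUD1: ATTGGgCCACG
HYOU1: ATTGGaCCACG
SDF2L1: ATTGGtCCACG

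With palbociclib alone many ATF4 and serine synthesis genes were lower, and no ER chaperone or degradation gene was called. Against untreated, 8 of the 15 ATF4 and serine synthesis genes were called lower (53.3%, with 4.89% of all tested genes called lower) and 0 were called higher (5.85% of all tested genes). Their median log2 ratio was −1.13, against −0.02 over all tested genes. Of the 24 ER chaperone and degradation genes, 0 were called in either direction, and their median was −0.11. The genes that fell were PHGDH, PSAT1, SHMT2 and ASNS among the enzymes and DDIT3, DDIT4, TRIB3 and CHAC1 among the factors and regulators. In such bulk libraries, fewer cells with a transcript and less of it per cell cannot be told apart.

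**Figure D2:**
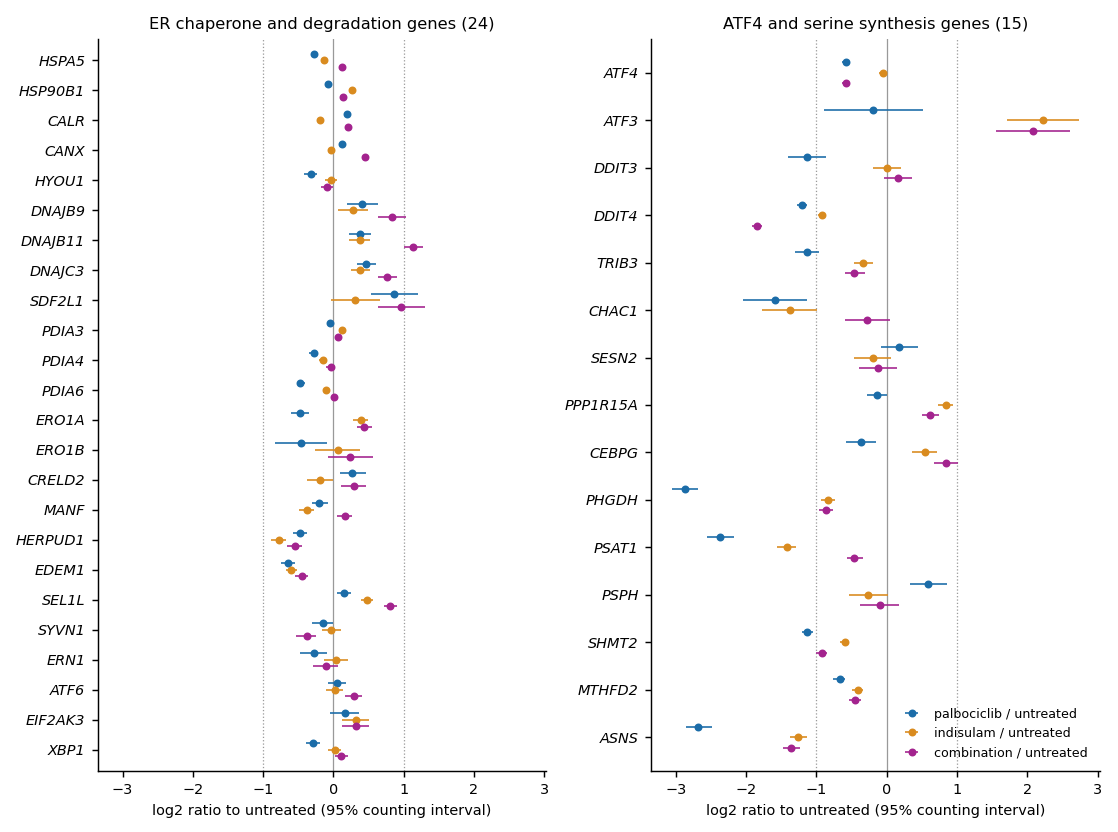
Log2 ratio to untreated of each of the 39 members for palbociclib, indisulam and the combination, with 95% counting intervals as bars and dotted lines at 2-fold lower and higher. In the ER chaperone and degradation genes only DNAJB11 in the combination lies beyond the lines, whereas 8 of the 15 ATF4 and serine synthesis genes lie beyond the lower line with palbociclib.

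PHGDH, the enzyme of the first step from glycolysis to serine, had 1904, 262, 1427 and 1193 reads in the untreated, palbociclib, indisulam and combination libraries (152, 20.6, 85.4 and 83.1 CPM). The palbociclib library stood alone at the bottom, and the libraries with indisulam lay close to each other. PHGDH fell 7.32-fold with palbociclib alone, at a log2 ratio of −2.87 (−3.06 to −2.69), and held rank 19 of 14269 genes from the lowest in that comparison. With both drugs it was at −0.87 (−0.97 to −0.76) relative to untreated and at −0.04 (−0.15 to 0.07) relative to indisulam.

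PSAT1, the aminotransferase of the next step, had 1329, 259, 660 and 1106 reads in the untreated, palbociclib, indisulam and combination libraries (106, 20.4, 39.5 and 77 CPM). It fell 5.17-fold with palbociclib alone, at −2.37 (−2.56 to −2.18), and 2.68-fold with indisulam alone, at −1.42 (−1.56 to −1.29). In the combination the level was above that in either single drug library, with a log2 ratio of 1.91 (1.72 to 2.11) to palbociclib and of 0.96 (0.82 to 1.10) to indisulam. The last enzyme of the serine pathway, the phosphatase PSPH, was not called in any comparison. PSPH had 193, 295, 214 and 206 reads, and its palbociclib level was the highest of the 4, with a ratio of 0.59 (0.33 to 0.86) to untreated, so the 3 enzymes of this pathway did not move together.

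ASNS, which makes asparagine from aspartate, had 1762, 278, 981 and 784 reads in the untreated, palbociclib, indisulam and combination libraries (140, 21.9, 58.7 and 54.6 CPM). It fell 6.39-fold with palbociclib alone, at −2.68 (−2.86 to −2.49), and held rank 29 of 14269 from the lowest. ASNS also fell with indisulam alone, at −1.26 (−1.37 to −1.14), and with both drugs, at −1.36 (−1.48 to −1.24). All 3 treated libraries were below untreated, and the palbociclib library was the lowest. ASNS differed little between the libraries with indisulam, at −0.10 (−0.24 to 0.03) for the combination against indisulam.

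The mitochondrial one-carbon enzymes differed by less. SHMT2, which passes a carbon unit from serine to folate, had 3666, 1693, 3220 and 2210 reads in the same order of libraries, or 292, 133, 193 and 154 CPM. It fell with palbociclib alone, at −1.13 (−1.21 to −1.05), and was at −0.92 in the combination, just short of the 2-fold threshold. MTHFD2, the next enzyme of this route, was not called, with 224, 140, 168 and 164 CPM. For SHMT2 and MTHFD2 the palbociclib library was the lowest and the untreated library the highest, as for PHGDH, PSAT1 and ASNS.

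**Figure D3:**
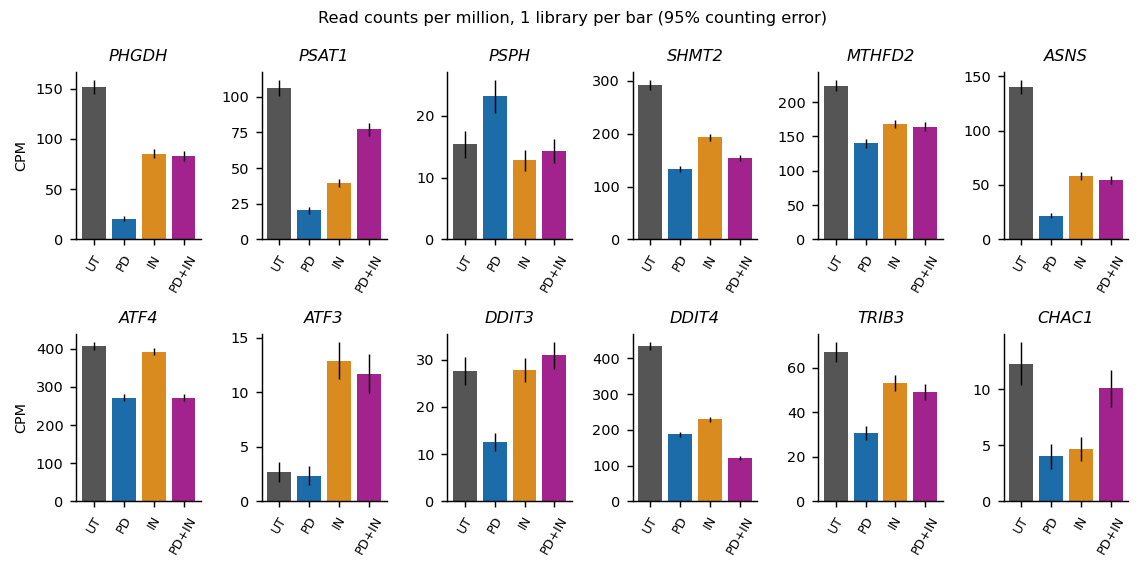
Level in CPM of 12 ATF4 and serine synthesis genes in the untreated (UT), palbociclib (PD), indisulam (IN) and combination (PD+IN) libraries, with bars from 0 and 95% counting error. PHGDH, PSAT1 and ASNS are lowest in the palbociclib library at between 20.4 and 21.9 CPM, and ATF3 is high in both libraries with indisulam.

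Among the factors, the mRNA of ATF4 itself was not called in any comparison. It had 5104, 3456, 6545 and 3906 reads in the untreated, palbociclib, indisulam and combination libraries, or 407, 272, 392 and 272 CPM. Both libraries with palbociclib were lower than both without, with ratios of −0.58 (−0.64 to −0.52) without indisulam and −0.53 (−0.58 to −0.47) with it. DDIT3, which encodes CHOP, a partner of ATF4 linked to cell death in lasting stress, had 347, 160, 465 and 444 reads (27.6, 12.6, 27.8 and 30.9 CPM). The palbociclib library was low and the other 3 were close to each other. DDIT3 fell with palbociclib alone, at −1.13 (−1.40 to −0.86), and was at 0.15 (−0.04 to 0.34) for the combination against indisulam. On the genome, 31.6% of the exon bases of DDIT3 are shared with genes on the opposite strand, so its reads are certain only if strand was used in counting.

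TRIB3, a pseudokinase that dampens ATF4 and AKT signalling, was also lowest with palbociclib, with 843, 389, 887 and 703 reads (67.1, 30.7, 53.1 and 49 CPM). It fell with palbociclib alone, at −1.13 (−1.30 to −0.96), and was at −0.12 (−0.26 to 0.03) for the combination against indisulam. CHAC1, which breaks down glutathione, had few reads, with 154, 51, 78 and 145 in the 4 libraries (12.3, 4.02, 4.67 and 10.1 CPM). Both single drug libraries were low, and the combination lay near untreated. CHAC1 fell 3.02-fold with palbociclib, at −1.59 (−2.05 to −1.14), and 2.6-fold with indisulam, at −1.38 (−1.77 to −0.99), and was at −0.28 (−0.60 to 0.05) in the combination.

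DDIT4, an inhibitor of mTORC1, had 5457, 2391, 3836 and 1737 reads in the untreated, palbociclib, indisulam and combination libraries (435, 188, 230 and 121 CPM). Each treated library was below untreated, and unlike in the enzymes above the combination was the lowest. DDIT4 fell 2.31-fold with palbociclib alone, at −1.21 (−1.28 to −1.14), and 3.59-fold with both drugs, at −1.84 (−1.92 to −1.77). With indisulam alone its ratio was −0.92 (−0.98 to −0.86), and its ratio of the combination to indisulam was also −0.92 (−1.01 to −0.84), both short of 2-fold.

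Indisulam alone gave a mixed picture in the same 15 genes. Against untreated, 1 was called higher (8.39% of all tested genes) and 3 were called lower (6.69% of all tested genes), with a median of −0.34 against 0.06 over all tested genes. The genes that fell were CHAC1, PSAT1 and ASNS, given above. The gene that rose was ATF3, an early factor of many stress pathways, with 34, 30, 216 and 168 reads in the untreated, palbociclib, indisulam and combination libraries, or 2.71, 2.36, 12.9 and 11.7 CPM. ATF3 was high in both libraries with indisulam and low in both without, at 2.23 (1.71 to 2.74) with indisulam alone and 2.08 (1.56 to 2.61) in the combination, 4.68-fold and 4.24-fold above untreated. PPP1R15A, which directs the phosphatase of eIF2α, had the same order of libraries at smaller size, with 71.3, 64.6, 128 and 109 CPM, and was not called. SESN2, a regulator of mTORC1 and oxidative stress, lay between 15.1 and 19.7 CPM in all libraries.

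In the combination against untreated, 1 of the 15 was called higher, ATF3 (12.9% of all tested genes were called higher), and 2 were called lower, DDIT4 and ASNS (10.5% of all tested genes). Their median was −0.45, against 0.05 over all tested genes. Of the 24 ER chaperone and degradation genes 1 was called higher and 0 lower, with a median of 0.18. The number of members called was thus lower with both drugs than with palbociclib alone, although more of all tested genes were called with both drugs.

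In the combination against palbociclib, 7 of the 15 ATF4 and serine synthesis genes were called higher and 0 lower. In this comparison 9.56% of all tested genes were called higher and 7.38% lower, and the median of the 15 was 0.76, against 0.07 over all tested genes. The 7 were ATF3 at 2.27 (1.72 to 2.83), PHGDH at 2.01 (1.81 to 2.20), PSAT1 at 1.91, ASNS at 1.31 (1.12 to 1.51), CHAC1 at 1.31 (0.86 to 1.77), DDIT3 at 1.29 (1.03 to 1.55) and CEBPG at 1.21 (1.02 to 1.40). Of these, all but ATF3 and CEBPG had been called lower with palbociclib alone, which shares the palbociclib library. CEBPG, a dimer partner of ATF4, had 383, 300, 743 and 788 reads in the untreated, palbociclib, indisulam and combination libraries (30.5, 23.6, 44.5 and 54.9 CPM), so it was higher in both libraries with indisulam than in both without.

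In the combination against indisulam, 1 member was called higher, CHAC1 at 1.10 with 0.71 as the lower limit, and 0 members were called lower. Over all tested genes 5.04% were called higher and 3.15% lower in this comparison. The median of the 15 ATF4 and serine synthesis genes was −0.04, and that of all tested genes was −0.01. This ratio shares no library with that of palbociclib to untreated, and the ratios of the 8 genes that fell with palbociclib alone were −0.04 for PHGDH, −0.10 for ASNS, −0.12 for TRIB3, 0.15 for DDIT3, −0.32 for SHMT2, −0.92 for DDIT4, 0.96 for PSAT1 and 1.10 for CHAC1. DDIT4 was thus the gene of the 8 with a ratio near that without indisulam.

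**Figure D4:**
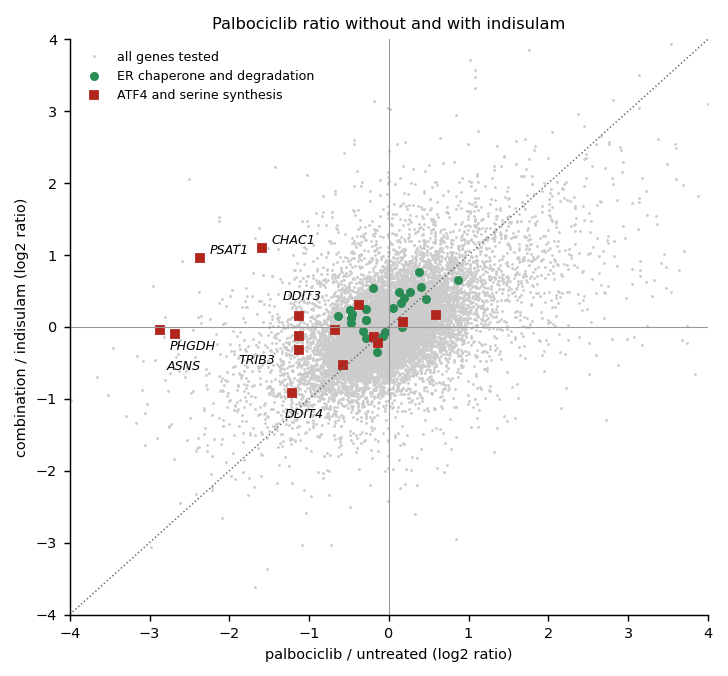
Log2 ratio of palbociclib to untreated (x axis) against log2 ratio of combination to indisulam (y axis) for all tested genes in grey and the members in colour (green circles for the ER chaperone and degradation genes and red squares for the ATF4 and serine synthesis genes), with 18 genes outside the plotted range and a dotted line of equal ratios. PHGDH, ASNS and PSAT1 lie below −2 on the x axis and between −0.10 and 0.96 on the y axis.

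The departure from additivity put a value on this difference. For 6 of the 15 genes it was called above 0 (3.93% of all tested genes) and for 0 below 0 (3.84% of all tested genes), with a median of 0.67 against 0.01 over all tested genes. PSAT1 departed by 3.33 (3.10 to 3.57), PHGDH by 2.83 (2.62 to 3.05), CHAC1 by 2.69 (2.09 to 3.30), ASNS by 2.57 (2.34 to 2.80), DDIT3 by 1.28 (0.95 to 1.61) and TRIB3 by 1.01 (0.79 to 1.24). PSAT1 held rank 9, PHGDH rank 27, CHAC1 rank 31 and ASNS rank 37 of 14269 from the highest departure. In these 6 genes the combination had more reads than the product of the single drug ratios gives. The departure was 0.05 (−0.71 to 0.80) for ATF3 and 0.28 (0.17 to 0.39) for DDIT4. The call for TRIB3 was lost when scaling factors of another kind were used. A low value in the palbociclib library alone would give both the fall with palbociclib and the departure for PHGDH, ASNS, DDIT3 and TRIB3. With 1 library per condition, these cannot be told apart. For PSAT1 and CHAC1 the combination was also above indisulam, at 0.96 and 1.10, a ratio without the palbociclib library. Whether low values in single libraries gave the departures of PSAT1 and CHAC1 was not tested. In all, 11 of the 39 members were called at least once, and of the 15 ATF4 and serine synthesis genes 5 were called nowhere (ATF4, SESN2, PPP1R15A, PSPH and MTHFD2). The share of all tested genes called at least once was not computed, so these counts have no background here.

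The ER chaperone and degradation genes moved within a narrower range. With palbociclib alone they lay between −0.64 (EDEM1) and 0.87 (SDF2L1), and with indisulam alone between −0.78 (HERPUD1) and 0.48 (SEL1L), with a median of 0.02. Under both drugs they lay between −0.55 (HERPUD1) and 1.14 (DNAJB11). For the combination against palbociclib their median was 0.24, with 0.07 over all tested genes. Here 0 were called, beside 9.56% of all tested genes higher and 7.38% lower. Against indisulam their median was 0.20, with −0.01 over all tested genes. Again 0 were called, beside 5.04% higher and 3.15% lower. In the departure 0 were called, beside 3.93% of all tested genes above 0 and 3.84% below. The summed level of the 24 genes was 6418, 6099, 6433 and 7293 CPM in the untreated, palbociclib, indisulam and combination libraries, and that of the 15 ATF4 and serine synthesis genes was 1999, 978, 1464 and 1222 CPM. The first sum was highest in the combination and the second in untreated cells, and both were lowest with palbociclib.

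The gene that was called, DNAJB11, encodes a co-chaperone of HSPA5. It had 607, 800, 1049 and 1530 reads in the untreated, palbociclib, indisulam and combination libraries, or 48.3, 63, 62.8 and 107 CPM. Both single drug libraries were about equally above untreated, and the combination was the highest. DNAJB11 rose 2.2-fold in the combination against untreated, at 1.14 (1.00 to 1.27). Other co-chaperones of HSPA5 were below the threshold, with DNAJB9 at 0.84 (0.63 to 1.04) and DNAJC3 at 0.77 (0.64 to 0.90) in the same comparison. SDF2L1, which works with DNAJB11, was at 0.97 (0.64 to 1.31), and SEL1L, the scaffold of the degradation ligase, at 0.81 (0.72 to 0.90). At a threshold of 1.5-fold these 5 genes were called higher in the combination, 5 of 24, against 23.1% of all tested genes.

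HSPA5 (BiP), the main chaperone of the ER and the usual marker of its stress, had 7689, 6422, 9372 and 9564 reads in the untreated, palbociclib, indisulam and combination libraries (612, 506, 561 and 666 CPM). Relative to untreated it was at −0.28 (−0.32 to −0.23) with palbociclib, at −0.13 (−0.17 to −0.08) with indisulam, and at 0.12 (0.08 to 0.16) with both. The large chaperones varied within 2-fold, with HSP90B1 between 1120 and 1417 CPM, CANX between 928 and 1304 CPM and CALR between 767 and 1012 CPM. The disulfide isomerases PDIA3, PDIA4 and PDIA6 and the chaperones HYOU1 and MANF were also within 2-fold in each comparison. ERO1A, the disulfide oxidase, came closest to the threshold between the combination and palbociclib, at 0.91 (0.79 to 1.03), with 64.3 CPM in the palbociclib library and 121 CPM in the combination, and its relative ERO1B was at 0.70 (0.34 to 1.05).

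The degradation genes were divided. HERPUD1 and EDEM1, which help to bring misfolded proteins out of the ER, were highest in untreated cells, at 131 and 178 CPM, and between 76.4 and 131 CPM in the treated libraries. SEL1L was lowest in untreated cells, at 120 CPM, and highest in the combination, at 211 CPM. SYVN1, the ligase that SEL1L holds, was lowest in the combination, at 49.1 CPM, against 57.6 to 64 CPM elsewhere. The sensors changed little, with XBP1 at 135, 110, 137 and 146 CPM in the untreated, palbociclib, indisulam and combination libraries and its ratios to untreated between −0.29 and 0.11. ATF6, ERN1 and EIF2AK3 had ratios to untreated between −0.28 and 0.32. CRELD2, a secreted target of ATF6, was between 28.6 and 39.9 CPM.

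By the order of libraries, the combination was highest for 15 of the 24 ER chaperone and degradation genes, untreated for 5, indisulam for 4 and palbociclib for 0. Palbociclib was lowest for 11 of the 24. In the ATF4 and serine synthesis genes, untreated was highest for 9 of 15 and palbociclib lowest for 11 of 15. Many of these orders rest on differences within counting error or well under 2-fold, and they carry no test. The orders were not counted over all tested genes, so they cannot be read as particular to these lists.

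The wider ATF4 response was read from 2 further lists. Of 10 amino acid transporters, 9 were tested, and with palbociclib 0 were called higher (5.85% of all tested genes) and 2 lower (22.2%, with 4.89% of all tested genes), SLC7A5 at −1.07 and SLC1A5 at −1.03. With indisulam 1 was called higher (SLC3A2 at 1.05) and 1 lower (SLC1A4 at −1.11), each 11.1% of the 9 and near the 8.39% and 6.69% of all tested genes. In the combination against palbociclib 3 were called higher (SLC3A2, SLC7A5 and SLC7A1, 33.3% against 9.56% of all tested genes) and 1 lower (SLC43A1, 11.1% against 7.38%). SLC3A2, the heavy chain shared by several transporters of large neutral amino acids and cystine, had 1521, 1055, 4205 and 8843 reads in the untreated, palbociclib, indisulam and combination libraries, and its partner SLC7A5 had 1557, 749, 2136 and 3729. Both were lowest with palbociclib and highest in the combination, and unlike the serine enzymes both exceeded untreated there, SLC3A2 at 2.35 and SLC7A5 at 1.07. Their departures were 1.83 and 2.09, and that of SLC1A4 was 1.87. In the departure 3 of the 9 were called above 0 (33.3%, with 3.93% of all tested genes) and 0 below (3.84%). SLC43A1, a transporter of branched-chain amino acids, fell in the combination, at −1.49 against untreated.

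Of 20 other ATF4 targets, 18 were tested. With palbociclib 1 was called higher, ATF5 at 1.17, and 4 lower, with CBS at −2.19, CTH at −1.88 and EIF4EBP1 at −1.38 the lowest. CBS and CTH make cysteine from homocysteine and serine, and EIF4EBP1 holds back translation. CBS rests on few reads, with 53, 11, 57 and 16 in the untreated, palbociclib, indisulam and combination libraries. Unlike PHGDH and ASNS, it was also called lower in the combination against indisulam, at −1.55. In that comparison ALDH1L2 was called higher, at 1.83. Each of the 2 is 5.56% of the 18, beside 5.04% of all tested genes higher and 3.15% lower. With indisulam GDF15, a secreted stress cytokine, rose by 2.23 on the log2 scale (101, 64, 635 and 509 reads), and STC2, a secreted glycoprotein, by 2.13 (1155, 1251, 6747 and 6386 reads), and both were high in the libraries with indisulam and low in those without, as ATF3 was. TXNIP, which is also controlled by glucose-sensing factors, fell with both drugs, at −1.18 (palbociclib), −2.13 (indisulam) and −3.06 (both). Over the 18, 1 called higher with palbociclib was 5.56% (5.85% of all tested genes) and 4 called lower were 22.2% (4.89%). With indisulam 2 were called higher (GDF15 and STC2) and 2 lower (TXNIP and PYCR1), each 11.1%, near the 8.39% and 6.69% of all tested genes. In the combination against untreated 2 higher (11.1%) and 4 lower (22.2%) stood beside 12.9% and 10.5% of all tested genes, and against palbociclib 5 higher (27.8%) and 1 lower (5.56%) beside 9.56% and 7.38%. In the departure 6 of the 18 were called above 0 (33.3%, with 3.93% of all tested genes) and 0 below (3.84%). The largest of these was ALDH1L2 at 1.94 (0.95 to 2.93), which rests on 31, 29, 22 and 70 reads in the untreated, palbociclib, indisulam and combination libraries. NUPR1 followed at 1.69 (1.46 to 1.92), with 808, 436, 565 and 837 reads, and VLDLR at 1.63 (0.98 to 2.27), with 83, 43, 97 and 134 reads.

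**Figure D5:**
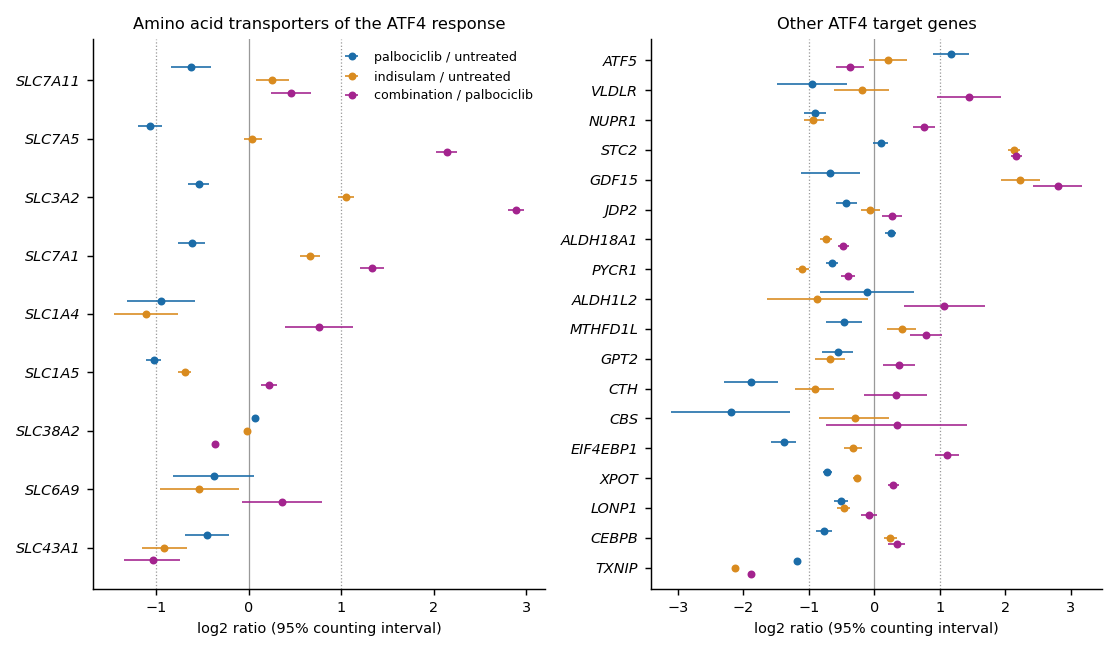
Log2 ratios of palbociclib and indisulam to untreated and of the combination to palbociclib for the tested amino acid transporters and other ATF4 targets, with dotted lines at 2-fold lower and higher. SLC3A2 and GDF15 lie farthest to the right in the ratio of the combination to palbociclib, at 2.89 and 2.80, and TXNIP lies left of the line in all 3 ratios.

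In the wider ER lists the shares called were mostly near or below those of all tested genes. Of 15 other tested folding enzymes, 1 was called higher in the combination against untreated, HSPA13 at 1.11 (6.67%, with 12.9% of all tested genes). In the other comparisons 0 were called, beside between 3.15% and 9.56% of all tested genes in each direction. Of 15 other tested degradation genes, UBE2G2 rose with palbociclib, at 1.12 (6.67%, with 5.85% of all tested genes), and EDEM2 fell with indisulam, at −1.15 (6.67%, with 6.69%), and in the combination, at −1.31 (6.67%, with 10.5%). Of 16 genes of the translocon and signal peptide processing, 2 were called higher in the combination against untreated, SEC11C at 2.06 and SPCS3 at 1.24 (12.5%, with 12.9% of all tested genes). SEC11C, a catalytic subunit of signal peptidase, had 132, 181, 334 and 632 reads in the untreated, palbociclib, indisulam and combination libraries and was called higher against each single drug as well. Of 12 further signalling genes, WFS1 rose with palbociclib (169 reads in the untreated and 422 in the palbociclib library) and in the combination, at 1.58, and CREB3L1 fell in the combination, at −1.10. Each of these is 1 gene of 12 (8.33%), beside 5.85%, 12.9% and 10.5% of all tested genes. WFS1 was also called higher in the combination against indisulam, at 1.06 (8.33%, with 5.04% of all tested genes). None of the 8 kinases and phosphatase subunits of eIF2α was called in any comparison or in the departure. Over all tested genes the share called in 1 direction was between 3.15% and 12.9% in these. The ratios of the 8 to untreated lay between −0.63 (EIF2AK4 in the combination) and 0.40 (EIF2S1 with indisulam).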

How the data were processed

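RNA of SUM159 cells was sequenced in 4 libraries, and the groups were taken from the sample labels. The authors deposited raw read counts per Ensembl gene, with no normalization. TopHat2 2.1 and HTSeq are named in the submitters' processing notes, with GRCh38 as the build. The strand setting, the annotation release and any pooling of duplicates are not given in the sources used here. Tallies of reads outside single genes (between 9.61% and 10.1% of a library) were kept out of totals. Reads at more than 1 place were not counted, so genes with near-identical copies may be low: 8 members have named pseudogenes, with at most 44 reads each.

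Counts were scaled to the mean library total, and log2 ratios were taken with a pseudocount of 1 scaled count. Genes with a mean of at least 1 CPM were tested. No interval or floor covers more than counting error, and PCR copies of a molecule could not be told apart. Calls needed 2-fold and a 95% interval that excluded no change. Scaling alternatives used edgeR 4.0.16 (TMM) and DESeq2 1.42.0 (median of ratios). No test of either was run, since each condition has 1 library. The other alternatives were totals without mitochondrial genes, a pseudocount of 0.5, minimums of 5 CPM or 1 count, and a 1.5-fold threshold. The steps were checked on simulated counts with counting error alone, the error that the interval assumes. The check therefore does not cover variation between libraries. Symbols, positions and exon lengths came from GENCODE 44, and promoters from RefSeq. Over 10% of exon bases was shared on the opposite strand by 3 members (DDIT3, PDIA6 and MTHFD2) and on the same strand by 0.

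The members, lists and rules were chosen with earlier results of these data known. Members called at least once were to be given in every library, with HSPA5, XBP1, ATF4 and DDIT3 whatever their values, and from each wider list at most 3 called genes per comparison. Members shown beyond that rule (such as PSPH, MTHFD2, PPP1R15A, SESN2, SEL1L, HERPUD1 and EDEM1) were chosen after their values were seen.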

Additional observations from a re-analysis of the deposited data

Results flagged for a closer look

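The log2 ratio of a drug pointed in opposite directions without and with the other drug, with both counting intervals excluding no change, in 10 members for palbociclib and 13 for indisulam. The ratios differed by 2-fold or more in 2 and 5 of these, which are 5 different members in all. How many of all tested genes meet this rule was not computed, so the counts are not set against a background. In the other 8 members for each drug the difference was under 2-fold. These were HSPA5, PDIA4, PDIA6, MANF, HERPUD1, EDEM1, XBP1 and CEBPG for palbociclib and HSPA5, CANX, PDIA4, PDIA6, MANF, EDEM1, SHMT2 and MTHFD2 for indisulam. The log2 ratio of palbociclib was −2.37 without indisulam and 0.96 with it for PSAT1, a difference of 3.33, and −1.59 and 1.10 for CHAC1, a difference of 2.69. The log2 ratio of indisulam was −1.42 without palbociclib and 1.91 with it for PSAT1 and −1.38 and 1.31 for CHAC1. It was −0.83 and 2.01 for PHGDH, a difference of 2.83, −1.26 and 1.31 for ASNS, a difference of 2.57, and −0.34 and 0.67 for TRIB3, a difference of 1.01. For each gene the difference is by definition the same for both drugs and equals the departure from additivity given above. It is thus no further observation. Each condition has 1 library, so none of these differences was tested against replicates.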

How the results depend on the processing

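No paired analysis was possible because each condition has 1 library, and no library could be left out for the same reason. The counts and medians of both gene sets were recomputed under 7 alternatives, and 15 of 252 values moved (a count by over 1.5 times, or a median by more than the typical counting error of its members), all of them counts at a 1.5-fold threshold in place of 2-fold. Smaller shifts also occurred. At 1.5-fold, the ER chaperone and degradation genes had 1 called higher and 1 lower with palbociclib, 2 lower with indisulam, 5 higher in the combination against untreated, 4 higher against palbociclib, 2 higher against indisulam and 5 above 0 in the departure. The ATF4 and serine synthesis genes had 1 called higher (PSPH) and 9 lower with palbociclib, 2 higher and 6 lower with indisulam, 3 higher and 4 lower in the combination against untreated, 9 higher and 2 lower against palbociclib, 2 higher and 1 lower against indisulam, and 9 above 0 in the departure. As background for these counts out of 24 and 15, the 1.5-fold shares over all tested genes follow, higher then lower. They were 12.6% and 12.2% with palbociclib, 17.2% and 14.2% with indisulam, and 23.1% and 19.4% in the combination against untreated. The combination had 18.4% and 14.5% against palbociclib and 12% and 10.2% against indisulam. The departure had 9.17% above 0 and 9.65% below. For 14 named members, 572 of 588 values kept their side of the threshold, and 0 called values reversed direction. Direction was not compared for values that were not called. The departure of TRIB3 fell just under the threshold, at 1.00, with TMM or median-of-ratios scaling, and 14 values passed only at 1.5-fold. Over all tested genes, the calls higher and lower went from 835 and 698 to 1797 and 1736 at 1.5-fold, and to 438 and 395 with a minimum of 5 CPM, for palbociclib against untreated. Under the same changes they went from 1197 and 955 to 2453 and 2032, and to 669 and 543, for indisulam, and from 1844 and 1505 to 3294 and 2765, and to 1107 and 997, for the combination. They went from 1364 and 1053 to 2619 and 2064, and to 761 and 635, for the combination against palbociclib, from 719 and 450 to 1717 and 1450, and to 293 and 251, against indisulam (with 1197 higher at a minimum of 1 count), and from 561 and 548 to 1308 and 1377, and to 288 and 294, for the departure. The minimum of 5 CPM tests fewer genes. No scaling moved the median of all tested genes by over 0.1. Depth limits genes such as CHAC1, ATF3 and CBS, since each has under 60 reads in at least 1 library.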
